A study of Rattus norvegicus with 8 samples.

Results

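Dusp1, Dusp5, Dusp6, Errfi1 and Ier3 were followed in cultured smooth muscle cells of the rat pulmonary artery during exposure to S-nitrosoglutathione (GSNO), a compound that releases nitric oxide. All probe sets annotated to 1 of these 5 symbols alone were taken, which gave 11 of the 8799 probe sets on the array: 3 each for Dusp1 and Errfi1, 2 each for Dusp6 and Ier3, and 1 for Dusp5. The cells were primary cultures grown out of explants of pulmonary arteries from adult Sprague-Dawley rats, after removal of the endothelium and adventitia. The 4 groups were untreated cells and cells given GSNO for 1 h, 2 h or 4 h, and each group had an array numbered 1 and an array numbered 2. The sources disagree on the GSNO concentration, 100 µmol/L in the series design and 100 mmol/L in the treatment protocol. There were 2 cell preparations, but the array number is not said to be the preparation, so p-values may measure only technical spread between arrays. Untreated cells formed a single group with no stated time, so time in culture and GSNO cannot be told apart, and less transcript per cell cannot be told apart from a change in the mix of cells.

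MAP kinase cascades pass signals from receptors such as the EGF receptor through RAS, RAF and MEK to ERK, and stress signals to p38 and JNK. Many of the genes that these kinases switch on encode proteins that then damp the cascade. Dusp1, Dusp5 and Dusp6 encode dual-specificity phosphatases, which remove phosphate from the threonine and tyrosine that activate a MAP kinase: Dusp1 is nuclear and acts on p38, JNK and ERK, Dusp5 is nuclear and selective for ERK, and Dusp6 is cytoplasmic and selective for ERK. Errfi1 (also called Mig-6 or RALT) encodes an adaptor that binds the EGF receptor kinase domain and inhibits it. Ier3 (IEX-1) encodes an immediate early protein that is a substrate of ERK. It is neither a phosphatase nor a receptor inhibitor and is known to prolong ERK activity, so the name feedback inhibitor does not describe it well.

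Starts of transcription of 4 members were covered by the RefSeq promoter windows of the rat build GRCr8, 250 bases before to 50 after the start. They are shown because 4 motifs were searched in them on both strands: the cAMP response element (CRE) TGACGTCA, its shorter core TGACG, the AP-1 site TGANTCA and the antioxidant element core TGACNNNGC. A CRE holds the shorter core on each strand, so those matches overlap. Capitals mark the CRE and its core, which read CGTCA where the match lies on the other strand. All 4 windows lie on the plus strand: Dusp1 at chr10:17184603-17184902, Dusp5 at chr1:262543524-262543823, Dusp6 at chr7:35979354-35979653 and Errfi1 at chr5:166606591-166606890.
Dusp1: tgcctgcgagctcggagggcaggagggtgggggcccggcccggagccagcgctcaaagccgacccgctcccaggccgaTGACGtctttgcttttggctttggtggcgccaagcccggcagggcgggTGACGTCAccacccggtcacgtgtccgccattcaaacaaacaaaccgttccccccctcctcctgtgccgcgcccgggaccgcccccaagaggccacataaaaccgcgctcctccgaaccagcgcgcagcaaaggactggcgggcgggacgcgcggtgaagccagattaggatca
Dusp5: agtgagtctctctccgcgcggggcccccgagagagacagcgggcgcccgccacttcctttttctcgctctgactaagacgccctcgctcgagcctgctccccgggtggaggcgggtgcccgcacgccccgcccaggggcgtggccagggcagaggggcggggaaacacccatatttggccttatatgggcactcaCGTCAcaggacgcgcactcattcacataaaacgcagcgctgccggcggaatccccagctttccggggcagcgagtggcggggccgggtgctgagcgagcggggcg
Dusp6: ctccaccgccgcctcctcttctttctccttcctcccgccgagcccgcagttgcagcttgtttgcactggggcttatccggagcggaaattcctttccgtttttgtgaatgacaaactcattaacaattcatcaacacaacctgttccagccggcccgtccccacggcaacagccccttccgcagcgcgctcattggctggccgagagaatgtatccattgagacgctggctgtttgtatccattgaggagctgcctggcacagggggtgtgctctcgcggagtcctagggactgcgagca
Errfi1: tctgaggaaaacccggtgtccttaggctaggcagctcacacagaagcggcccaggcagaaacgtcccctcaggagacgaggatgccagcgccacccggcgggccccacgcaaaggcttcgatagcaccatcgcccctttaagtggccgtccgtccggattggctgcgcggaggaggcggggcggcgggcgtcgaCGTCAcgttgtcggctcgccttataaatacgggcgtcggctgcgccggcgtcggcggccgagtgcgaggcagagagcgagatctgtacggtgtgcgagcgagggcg

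The Dusp1 window held the full CRE, beginning 124 bases before the start, and another core 172 bases before it. Among all 33469 promoter windows of that length, 1.83% held a full CRE. The core alone was present in the Errfi1 window, 56 bases before the start, and in the Dusp5 window, 55 bases before the start. The core with no full CRE was present in 19.4% of all windows, and the core with or without it in 21.2%. The Dusp6 window held neither. The AP-1 site and the antioxidant core were present in 0 of the 4 windows, against 7.33% and 12.1% of all. A match of letters is a description of the window and not evidence that a factor binds there.

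Signals are on the linear scale of the deposited table, and the median signal of an array lay between 100.04 and 141.2. The array's 40th percentile, 57.2 to 91.0 signal units, was used as the mark below which a probe set is weak. Arrays numbered 1 and 2 were scanned in 2 separate runs, here called run 1 and run 2, and each group has 1 array in each. Fluidics settings and chip lots differed between the runs. Within run 1 the 1 h array was of another chip lot than the control, 2 h and 4 h arrays. Of 10 smooth muscle markers on the array, 9 reached the 40th percentile on at least 2 arrays and desmin (Des) on 0. The summed signal of the smooth muscle markers was 62981 to 90738 in control and 54163 to 85543 at 4 h. Of 8 endothelial markers, 4 reached it and Kdr, Icam2 and Sele did not on any array. Their summed signal was 1596 to 2578 in control and 517 to 818 over the 6 GSNO arrays, of which Edn1, the endothelin-1 precursor, held a mean of 1461 in control and 155 at 4 h. Without Edn1 the other 7 summed to 540.1 to 712 in control and 352 to 655 with GSNO. Of 7 fibroblast and adventitia markers 7 reached the mark, and their sum was 33835 to 33856 in control, 24080 to 36233 at 1 h, 25090 to 28472 at 2 h and 22300.3 to 29195 at 4 h. The part of these marker differences in the results was not tested. Reaching the mark does not by itself identify a cell type. By the same rule 6 of 8 cardiac and skeletal muscle markers reached it, 4 of 7 of macrophages and leukocytes and 2 of 7 of lung epithelium.

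In the fit that takes no account of the run, Errfi1 and Ier3 rose at all 3 times. Dusp6 fell there at 4 h on 1 of its 2 probe sets. Dusp1 passed only in fits that take account of the run or the experiment record, and Dusp5 passed in no fit. All 11 member probe sets passed the filter on low signals, but 3 of them only through the arrays where they were high: Dusp6 X94185cds_s_at through the 2 control arrays, and Errfi1 X07266cds_s_at and M23572_at through GSNO arrays. At 1 h 3 of the 11 rose and 0 fell, against 0.493% higher and 0.0340% lower among all 5877 probe sets tested (limma, adjusted p under 0.05 over all of them). At 2 h 4 rose and 0 fell, against 0.783% and 0.187%, and at 4 h 4 rose and 1 fell, against 0.953% and 0.579%. Over the 8 probe sets that reached the 40th percentile both in control and with GSNO, 2, 3 and 3 rose at the 3 times and 0 fell. With no filter the calls over the 11 numbered 3, 5 and 5. The 3 comparisons share the same 2 control arrays.

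The arrays of a run deviated together, so the fit was repeated with a replicate block made of the array number. Then the member probe sets that passed as higher numbered 7, 7 and 6 at the 3 times in order, and those that passed as lower 0, 2 and 1. The background under the block was 1.14%, 2.19% and 4.25% higher and 0.204%, 0.970% and 3.68% lower. With the recorded experiment as the block, in which the control array of run 1 shares its record with the 2 h array and not with the 1 h and 4 h arrays, 4, 5 and 4 passed as higher and 0, 1 and 0 as lower. The background there was 0.596%, 1.82% and 1.57% higher and 0.0851%, 0.766% and 1.24% lower. The calls that the replicate block added were those of Dusp1, of Dusp6 at 2 h and of 1 Ier3 probe set at 1 h. Leaving out 1 array lowered the 3 calls at 1 h to 0 without either 1 h array and to 1 without either control array. The 4 calls at 2 h became 0 without 2 h array 2, 1 without control array 1, and 2 without control array 2 or 2 h array 1. The 5 calls at 4 h became 0 without control array 2 or 4 h array 2, 1 without control array 1 or 1 h array 1, and 2 without 4 h array 1 or 1 h array 2.

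By the signals alone, 8 of the 11 probe sets lay higher on all 6 GSNO arrays than on both control arrays, 2 lay lower on all 6 and 1, that of Dusp5, did neither. Among all 5877 probe sets 3.66% lay higher and 4.17% lower in that way. Taken time by time, both GSNO arrays lay above both control arrays for 9 members at 1 h and for 8 at each later time, against 10.1%, 12.9% and 13.4% of all probe sets. They lay below for 2 members at each time, against 13.0%, 17.0% and 27.5%. All these counts take in Errfi1 X07266cds_s_at and M23572_at and Dusp6 X94185cds_s_at. The filter kept those only through the arrays where they were high, which favours such a separation, so they are no support for it. The median log2 fold change of the 11 was 1.43 at 1 h, 1.06 at 2 h and 0.89 at 4 h, beside -0.05, -0.06 and -0.16 over all probe sets tested, and 1.42, 1.15 and 0.91 over the 8 measured on both sides. The plot of signal by exposure time shows every array.

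**Figure D1:**
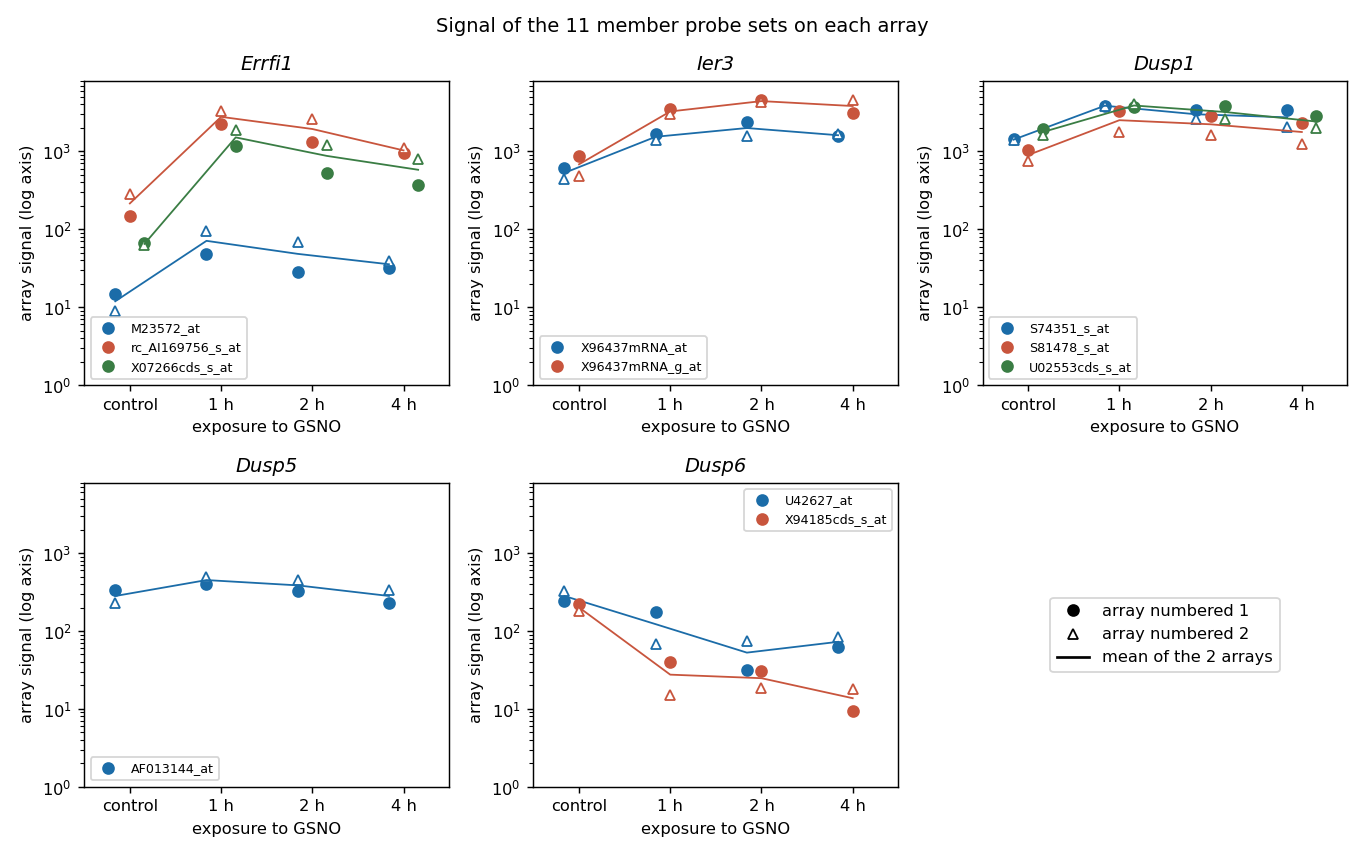
Signal of the 11 probe sets of the 5 genes in untreated cells and after 1, 2 and 4 h of GSNO, on a log axis. Each probe set has 1 point for each of the 8 arrays, and lines join the group means. Errfi1, Ier3 and Dusp1 lie above both control arrays on all 6 GSNO arrays, Dusp6 lies below both, and Dusp5 overlaps them at 2 and 4 h.

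Errfi1 (gene ID 313729) had the largest log2 fold changes of the 5 genes at 1 and 2 h, on its 2 stronger probe sets. On probe set rc_AI169756_s_at the signal was 148 and 282 on control arrays 1 and 2, 2233 and 3319.8 at 1 h, 1306 and 2571 at 2 h, and 947 and 1111 at 4 h. All 6 GSNO arrays lay above both control arrays, the 1 h array was the highest of each run and the 4 h array the lowest of the GSNO arrays. The mean rose from 215 ± 94.9 (SD, n = 2) to 2776 ± 768 at 1 h, 12.9-fold. On the log2 scale, after an offset of 21.1 signal units, the rise was 3.60 ± 0.41 (SE) at 1 h (limma adjusted p = 0.00828), 3.04 ± 0.41 at 2 h (adjusted p = 0.0135) and 2.21 ± 0.41 at 4 h (adjusted p = 0.0439). Over the alternatives the adjusted p reached 0.0682, 0.107 and 0.272 at the 3 times.

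The other strong Errfi1 probe set, X07266cds_s_at, was weak in untreated cells. It read 66.7 and 63.2 on the control arrays, 1164 and 1860 at 1 h, 531 and 1219 at 2 h, and 371 and 790.2 at 4 h. Both control signals were under the 40th percentile of their arrays and all 6 GSNO signals far above it, with run 2 higher than run 1 at each GSNO time. Since it was kept through the GSNO arrays and its control level is weak, the size of its difference depends on the offset: at 1 h it was 4.48 with an offset of 1 and 3.49 with an offset at the 40th percentile. The rise was 4.12 ± 0.48 (SE) at 1 h (limma adjusted p = 0.00842), 3.26 at 2 h (adjusted p = 0.0191) and 2.71 at 4 h (adjusted p = 0.0374), and the highest adjusted p over the alternatives was 0.0839, 0.132 and 0.194. With no filter it passed at all 3 times (adjusted p = 0.00689, 0.0180 and 0.0375). Both probe sets kept their calls at the 3 times with the replicate block. At 1 h both calls were lost without control array 1 or without either 1 h array, and that of X07266cds_s_at also without control array 2. At 2 h both calls were lost without control array 1 or 2 h array 2, and that of X07266cds_s_at again without control array 2. At 4 h both were lost without either control array, either 1 h array or 4 h array 2, and with an offset at the 40th percentile or no trend of variance. The 4 h call of rc_AI169756_s_at was also lost without 4 h array 1 and with the control and 4 h arrays fitted alone.

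The third Errfi1 probe set, M23572_at, was weak throughout. It read 15.0 and 8.87 in control, 48.1 and 94.0 at 1 h, 28.2 and 68.5 at 2 h, and 31.6 and 39.5 at 4 h. The 6 GSNO arrays again lay above both control arrays, but only the 1 h and 2 h arrays of run 2 reached the 40th percentile. Its log2 fold changes were 1.44 ± 0.52, 1.02 ± 0.52 and 0.78 ± 0.52 (SE), and limma called none of them in the first fit (adjusted p = 1.00, 0.987 and 0.638) or in any alternative. An offset of 21.1 is larger than its control signals, so the size of its fold change depends on the offset and is not reliable. At 1 h the log2 value ran from 0.75 to 2.44 over the alternatives.

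Ier3 (gene ID 294235) was read by a pair of probe sets designed on the same mRNA, which are not independent measurements of it. X96437mRNA_g_at gave 883 and 482 in control, 3483 and 3025 at 1 h, 4537 and 4302 at 2 h, and 3093 and 4551 at 4 h. All GSNO arrays lay above both control arrays, and the GSNO arrays of the 3 times overlapped one another in part. The mean rose from 682 ± 284 (SD, n = 2) to 4420 ± 166 at 2 h, 6.48-fold. The log2 rise was 2.28 ± 0.33 (SE) at 1 h (limma adjusted p = 0.0300), 2.72 at 2 h (adjusted p = 0.00870) and 2.48 at 4 h (adjusted p = 0.00980).

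The companion X96437mRNA_at gave 612 and 447 in control, 1675 and 1404 at 1 h, 2403 and 1587 at 2 h, and 1574 and 1651 at 4 h. The groups did not overlap the control arrays at any time. Its log2 fold change was 1.51 ± 0.28 (SE) at 1 h, where it passed with a block and not without (limma adjusted p = 0.0967, 0.00280 with the replicate block and 0.0158 when experiment records formed the block). It rose by 1.86 at 2 h (adjusted p = 0.0242) and 1.58 at 4 h (adjusted p = 0.0398). At 1 h the call of X96437mRNA_g_at was lost without either 1 h array, either 2 h array or control array 2, and in the fits with no trend of variance or with the control and 1 h arrays alone. Its call at 2 h was lost without either 2 h array, and at 4 h without control array 2 or 4 h array 2. The calls of X96437mRNA_at were lost at 2 h without any 1 of the control or 2 h arrays and at 4 h without any 1 of the control, 1 h or 4 h arrays, and at both times with no trend of variance or with the 2 groups fitted alone. Its 4 h call was lost with quantile normalization too (adjusted p = 0.0525).

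Dusp1 (gene ID 114856), the nuclear phosphatase, was already strong in untreated cells and lay higher on all GSNO arrays for all 3 of its probe sets, with no call in the fit without a block. S74351_s_at read 1441 and 1389 in control, 3843 and 3866 at 1 h, 3422 and 2568 at 2 h, and 3427 and 2045 at 4 h. The lowest GSNO array, that of 4 h in run 2, still lay above both control arrays. The log2 fold change was 1.43 ± 0.29 (SE) at 1 h, 1.06 at 2 h and 0.89 at 4 h. The limma adjusted p was 0.142, 0.281 and 0.247 without the block and 0.00448, 0.0177 and 0.0234 with it. With the recorded experiment as the block it was 0.122, 0.0600 and 0.192, so these calls were lost.

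S81478_s_at showed a difference between runs as large as much of the response. It read 1040.4 and 755 in control, 3263 and 1765 at 1 h, 2851 and 1602 at 2 h, and 2295 and 1251 at 4 h, and run 1 was higher at each time. Within each run the control array was the lowest. The fold changes were 1.42 ± 0.44 (SE), 1.25 and 0.92, with limma adjusted p = 0.675, 0.557 and 0.497 without the block and 0.00223, 0.00296 and 0.0105 with it. When experiment records formed the block the adjusted p was 0.0580, 0.0124 and 0.113, and the 2 h value alone passed. U02553cds_s_at gave 1931 and 1607 in control, 3707 and 4056 at 1 h, 3777 and 2628 at 2 h, and 2823 and 2006 at 4 h. Its fold changes of 1.13 ± 0.28 (SE) and 0.83 at 1 and 2 h passed with the replicate block (limma adjusted p = 0.310 and 0.504 without it, 0.0140 and 0.0453 with it) and not when experiment records formed the block (0.122 and 0.106). At 4 h it was 0.43 and passed in neither fit (adjusted p = 0.637, and 0.230 with the block).

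Dusp5 (gene ID 171109), the other nuclear phosphatase and selective for ERK, gave no call in the first fit or in any alternative. Its probe set AF013144_at read 336 and 226 in control, 405 and 496 at 1 h, 323 and 448 at 2 h, and 228 and 335 at 4 h. Only the 1 h arrays both lay above both control arrays, and at 2 and 4 h the groups overlapped. The log2 fold change was 0.66 ± 0.32 (SE) at 1 h, 0.43 at 2 h and 0.00 at 4 h (limma adjusted p = 1.00, 1.00 and 0.999). The value of 0.00 at 4 h stood for opposite values in the runs, -0.52 in run 1 and 0.52 in run 2.

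Dusp6 (gene ID 116663), the cytoplasmic ERK phosphatase, was the member that lay lower with GSNO. X94185cds_s_at read 219 and 182 in control, 39.7 and 15.3 at 1 h, 30.8 and 18.7 at 2 h, and 9.28 and 18.1 at 4 h. Both control arrays were above the 40th percentile and all 6 GSNO arrays below it. Control arrays averaged 201 ± 25.9 (SD, n = 2), and the 4 h mean of 13.7 ± 6.27 was below the offset, so the GSNO signals have no reliable order and no linear fold is given. It fell at 4 h by 2.68 ± 0.47 (SE) on the log2 scale with the offset (limma adjusted p = 0.0366, and up to 0.267 over the alternatives). The size depends on the offset: the value was -1.66 with an offset at the 40th percentile (adjusted p = 0.0161) and -3.84 with an offset of 1 signal unit (adjusted p = 0.0785), and with the recorded experiment as a block it was -2.62 (adjusted p = 0.0624). The call at 4 h was also lost without either control array, either 4 h array or 1 h array 1. At 1 and 2 h the log2 fold changes were -2.23 and -2.28 (adjusted p = 0.161 and 0.0891, and 0.0589 and 0.0281 with the replicate block). As the filter kept this probe set through its control arrays, the fit with no filter was also read: there it passed at 2 h (adjusted p = 0.0487) and 4 h (adjusted p = 0.0175). The alternative filter on the mean log2 value left it out, so it was not tested there.

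The other Dusp6 probe set, U42627_at, read 240.2 and 322 in control, 177 and 68.0 at 1 h, 31.8 and 73.8 at 2 h, and 62.4 and 82.8 at 4 h. All GSNO arrays lay below both control arrays, the 1 h array of run 1 being the nearest to them. Its log2 fold changes were -1.17 ± 0.48 (SE), -2.08 and -1.69 with limma adjusted p = 1.00, 0.141 and 0.172. With the replicate block the 2 h value passed (adjusted p = 0.0394) and the values at 1 h and 4 h did not (adjusted p = 0.700 and 0.0530).

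**Figure D2:**
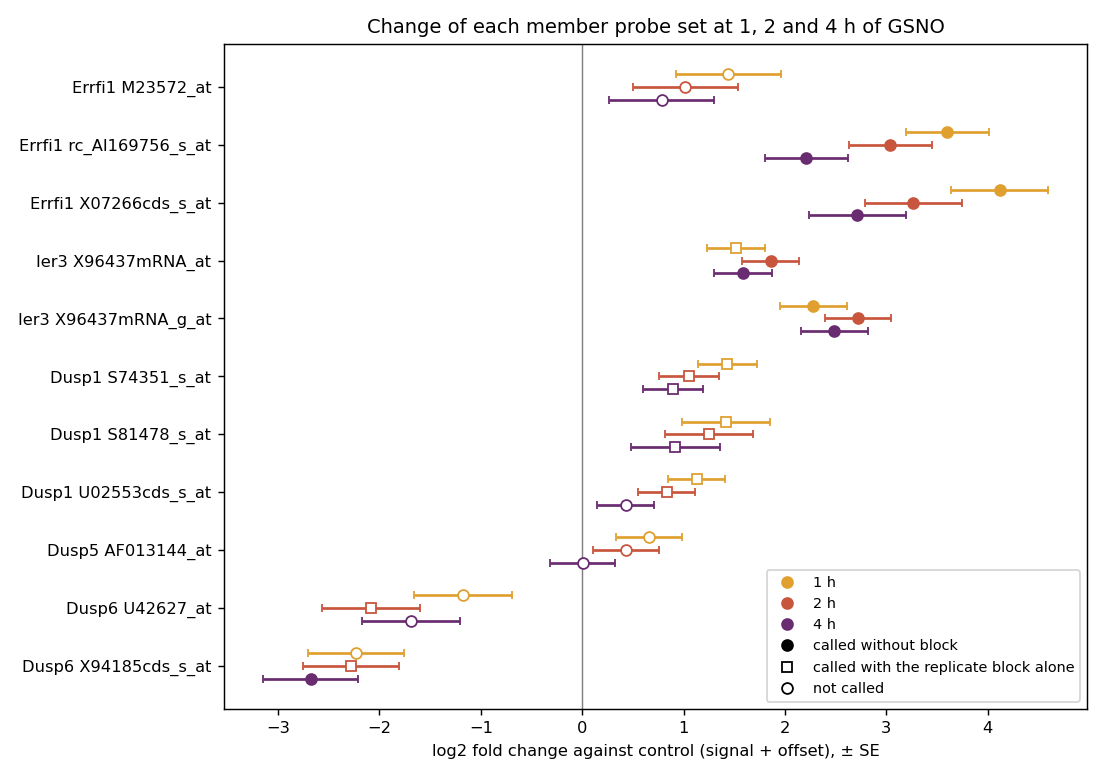
Log2 fold change against control at 1, 2 and 4 h of GSNO for the 11 probe sets, with bars of 1 standard error from the limma fit and calls marked. Values run from 4.12 for Errfi1 at 1 h to -2.68 for Dusp6 at 4 h.

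Each GSNO array was also set against the control array of its own run, which gives 2 values that share no array. Of the 33 values for 11 probe sets at 3 times, 31 had the same sign in both runs, 11 of 11 at 1 h, 10 at 2 h and 10 at 4 h. Within a run the 3 times share the control array, and the 11 probe sets stand for 5 genes, so the 33 values are not independent. Among all probe sets tested the sign was shared by 52.6%, 59.0% and 63.7%. The member values include those of Errfi1 X07266cds_s_at and M23572_at and of Dusp6 X94185cds_s_at. The filter kept these only through the arrays where they were high, which favours a shared sign. Both exceptions were of Dusp5. For Errfi1 rc_AI169756_s_at the 1 h values were 3.74 in run 1 and 3.46 in run 2. The runs lay further apart for Ier3 X96437mRNA_g_at at 4 h, 1.78 and 3.19, and for Dusp6 U42627_at at 1 h, -0.40 and -1.95.

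**Figure D3:**
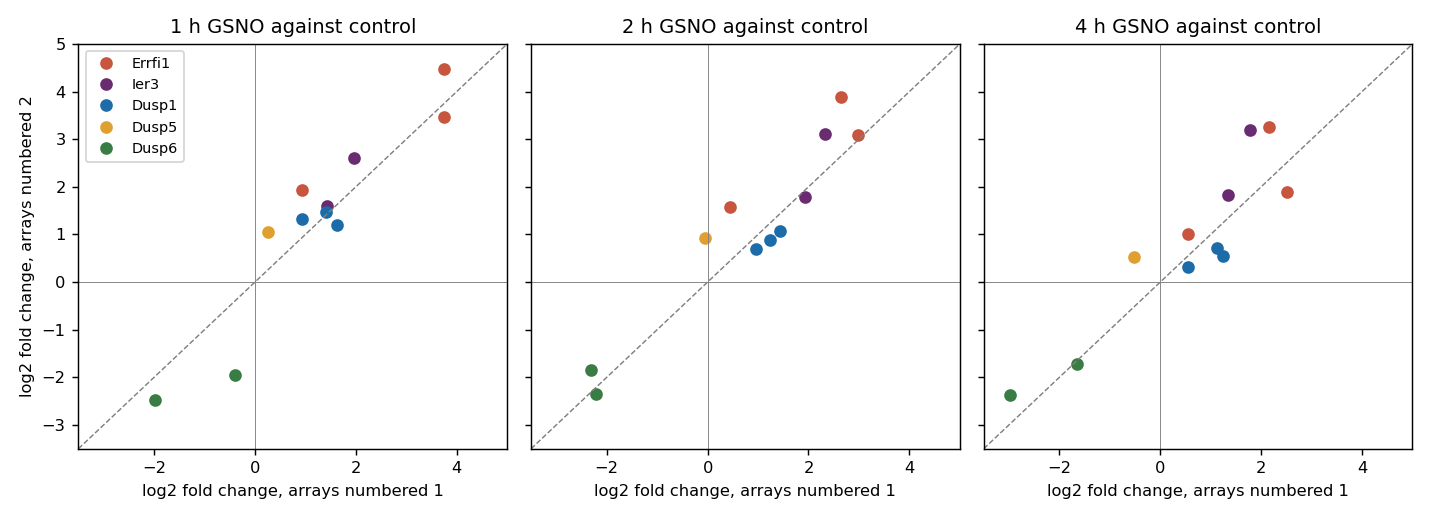
Log2 fold change against the control array of the same run, run 1 on the horizontal axis and run 2 on the vertical axis, for the 11 probe sets at 3 times, with the line of equal values. The Dusp5 values at 2 and 4 h are the only ones of opposite sign, at -0.06 and 0.92 and at -0.52 and 0.52.

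The times were also compared with each other. No member probe set passed between 2 h and 1 h or between 4 h and 2 h in limma, with or without the block. Without the block 0 had an unadjusted p under 0.05 in each. With it, on the probe set of highest mean, 1 of the 5 genes had such a p in each. Over all probe sets the calls were 0% in both, and 0.0340% and 0.544% with the block. Between 4 h and 1 h 0 members passed in limma, against 0.476% of all probe sets, and 3 had an unadjusted p under 0.05, against 9.04% of all. With the replicate block both strong Errfi1 probe sets were lower at 4 h than at 1 h, by -1.39 (limma adjusted p = 0.00521) and -1.40 (adjusted p = 0.0234), where 5.10% of all probe sets passed, 2.65% higher and 2.45% lower. Without the block these values had adjusted p = 0.272 and 0.368.

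Other genes of the pathway were read from lists by role, with the probe set of highest mean for each gene. Over all probe sets tested an unadjusted p under 0.05 was reached by 3.01% at 1 h, 6.13% at 2 h and 11.1% at 4 h. Among other MAP kinase and dual-specificity phosphatases, 8 of the 11 genes on the array passed the filter on low signals and 0 were called at any time (limma, 0 at an unadjusted p under 0.05 and 0 with the block, on these probe sets). Only Dusp7 among these kept genes is a dual-specificity phosphatase, and no other of that family in the list was tested. The rest are tyrosine phosphatases (Ptpn5, Ptpn1, Ptpn11, Ptpn12 and Ptpn2) and subunits of protein phosphatase 2A (Ppp2cb and Ppp2r1a). The median log2 fold change of the kept genes was -0.03 at 1 h, -0.05 at 2 h and 0.02 at 4 h. Ptpn1, a tyrosine phosphatase of receptor kinases, had 0.36 at 4 h (adjusted p = 0.650; its other 4 probe sets gave -0.16 to 0.86, and rc_AI113289_s_at, at 0.76, passed with the block, adjusted p = 0.0431), and Ppp2cb, a catalytic subunit of protein phosphatase 2A, had -0.40 at 1 h (adjusted p = 1.00).

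Of 11 kept genes listed as other inhibitors of receptor tyrosine kinase and RAS signalling, 0 were called in limma without the block. At an unadjusted p under 0.05 there were 0, 2 and 3 at 1, 2 and 4 h. The list is broad, and not all of its genes act on a receptor kinase or on RAS themselves. With the block Spry1 was lower at 2 h, and Spry1, Pea15, Grb14 and Rgs4 were lower at 4 h. Of all probe sets tested 0.970% and 3.68% were lower at these times with the block. Spry1, a Sprouty protein that blocks signalling from receptors to ERK, read 717 ± 81.4 (SD, n = 2) in control, 679 ± 341 at 1 h, 233 ± 64.3 at 2 h and 181 ± 86.7 at 4 h. Its log2 fold change at 4 h was -1.93 (limma adjusted p = 0.0802, and 0.00391 with the block). Grb14, an adaptor that inhibits the insulin receptor, gave -1.97 at 4 h (adjusted p = 0.0813, and 3.28e-04 with the block).

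Among EGF family ligands and receptors, 7 of 10 genes on the array were kept and 0 were called, with 0, 0 and 1 at an unadjusted p under 0.05 in limma. Nrg1, which encodes the ligand neuregulin 1, gave -2.00 at 4 h and passed with the block (limma adjusted p = 0.0753, and 0.00324 with the block). The other 3 Nrg1 probe sets gave 0.08, -0.18 and -0.99 at 4 h and passed in neither fit. Nrg2, a related ligand, gave -1.02 (adjusted p = 0.502). Of the kinases and adaptors of the cascades, 19 of 21 were kept and 0 were called, with 0, 3 and 1 at an unadjusted p under 0.05. The block added Mapk6, an atypical MAP kinase, at 2 h (1.31, limma adjusted p = 0.102, and 0.0139 with the block), Map3k1 as lower at 2 h, and Mapkapk2, a kinase activated by p38, at 4 h (1.07, adjusted p = 0.0754, and 0.00924 with the block).

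Among genes known to respond to ERK activity, 23 of 24 were kept, and the few calls went in both directions. An unadjusted p under 0.05 in limma was reached by 7, 6 and 4 of the 23 at 1, 2 and 4 h. Over all probe sets tested that share was 3.01%, 6.13% and 11.1%. Junb, a component of AP-1, rose at 1 h by 2.42 ± 0.34 (SE; limma adjusted p = 0.0239), from 754 ± 303 (SD, n = 2) to 4065 ± 1274. Ets1, a transcription factor that ERK phosphorylates, fell at 2 h with a log2 fold change of -2.19 (adjusted p = 0.0387). Egr1, an immediate early zinc finger factor, fell at 4 h with -1.94 (adjusted p = 0.0308), and read -0.24 at 1 h (adjusted p = 1.00). Of the other 3 Egr1 probe sets, M18416_at (-2.68, adjusted p = 0.0141) and rc_AI176662_s_at (-1.94, adjusted p = 0.0492) also fell at 4 h, M18416_at already at 2 h (-2.24, adjusted p = 0.0434), and U75398_s_at gave -1.27 (adjusted p = 0.277). At 1 h 2.48 was measured on the remaining Junb probe set (adjusted p = 0.0780), and at 2 h -1.60 on the remaining Ets1 probe set (adjusted p = 0.577). The calls were not stable to the loss of an array: over the alternatives, tried on these genes after their values were seen, the adjusted p reached 0.207 for Junb, 0.245 for Ets1 and 0.143 for Egr1. That of Junb was lost without either 1 h or 2 h array, 4 h array 1 or control array 2, and that of Ets1 without any 1 of the control, 1 h or 2 h arrays. That of Egr1 was lost without control array 1, 2 h array 1 or any 1 of the 1 h and 4 h arrays, and with arrays scaled to a common median. All 3 were lost with no trend of variance or with the 2 groups fitted alone. With the replicate block Junb was higher at all 3 times, while Myc was lower at 1 h (-2.05, adjusted p = 0.00790), Egr1 and Ets1 at 2 and 4 h, and Ptgs2 at 4 h (-1.48, adjusted p = 0.0351). The list's median was 0.25 at 1 h, 0.09 at 2 h and -0.15 at 4 h, beside -0.05, -0.06 and -0.16 over all probe sets tested.

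**Figure D4:**
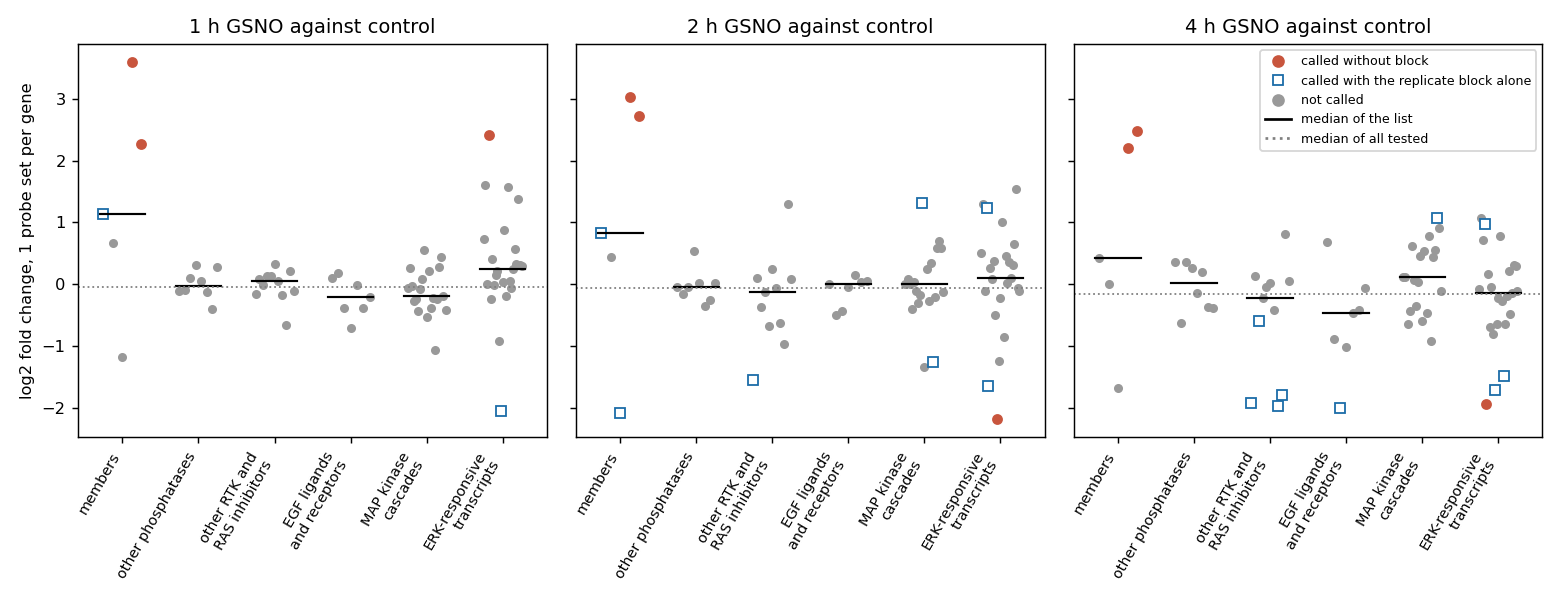
Log2 fold change against control at 1, 2 and 4 h for the 5 genes and for the kept genes of 5 lists of the MAP kinase pathway, with 1 point per gene and a bar at each median. Medians of the other lists lie between -0.47 and 0.25, and Errfi1 at 3.60 is the highest point at 1 h.

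The genes most like each member over the 8 arrays were found by Pearson's r of log2 signal among 3469 other genes, as a description with no test. The points share groups and runs, and each member was represented by its strongest probe set. Ier3 was followed most closely by the transcription factor gene Klf4 (r = 0.981), Nxt1 (0.968) and the phosphodiesterase gene Pde4b (0.961). For Errfi1 they were Emd (0.952), Gdf10 (0.949) and the transcription factor gene Cebpb (0.931). Dusp6 was matched by Usf1 (0.979), Dync1li2 (0.945) and Prx (0.944), Dusp5 by Or8g20b (0.950), Usp37 (0.945) and Kctd15 (0.922), and Dusp1 by Chrm5 (0.893), Dlk1 (0.888) and Efna1 (0.877). Pearson's r does not measure the size of a change. At 1, 2 and 4 h the log2 fold change of Dusp6 U42627_at was -1.17, -2.08 and -1.69. Usf1 had only -0.09, -0.21 and -0.16 and Dync1li2 -0.14, -0.36 and -0.24, while Prx had -0.98, -1.72 and -1.20.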

How the data were processed

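Total RNA was labelled and hybridised to 8 Affymetrix rat U34 arrays of set A, 2 for each of 4 groups. The intensity of each probe set was deposited as a single linear signal, computed by the authors with the array maker's 5.0 software, per the series design. The trimmed mean of 500.7 to 501.0 on every array marks scaling, so they were used as deposited. Run, chip lot and experiment were taken from other text fields of the deposited experiment records, per the file headers.

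An offset of 21.1 signal units (the median 20th percentile) was added before log2. Of 8740 probe sets that are not controls, 5877 reached their array's 40th percentile on at least 2 arrays. Tests used limma 3.58.1 in R 4.3.3: lmFit with all 4 groups, 4 residual degrees of freedom, eBayes with a trend, two-sided p-values, Benjamini-Hochberg adjustment over the 5877. Having only 2 arrays a group limits the precision.

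Array numbers pair the arrays: deviations from group means correlated at 0.387 to 0.569 between same-numbered arrays in all 6 pairs of groups, and the experiment records put the numbers in separate runs. Of the 28 array pairs, 0 held identical values. Symbols are from GEO's platform annotation. From each pathway list every called gene was named, up to 6, otherwise the 2 with the smallest unadjusted p. Genes named as calls of the block fit alone were chosen after their values were seen. The members and lists were chosen with earlier results of these data known. Alternatives changed the scaling, offset, filter, variance trend, block, arrays in the fit, and left out each array.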

Additional observations from a re-analysis of the deposited data

Results flagged for a closer look

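Errfi1 differed between exposure times on both strong probe sets in the fit with the replicate block, where 4 h was set against 1 h directly. The limma adjusted p was 0.00521 for rc_AI169756_s_at and 0.0234 for X07266cds_s_at, each lower at 4 h than at 1 h in both runs. In that fit 5.10% of all probe sets passed between these times. Neither Errfi1 probe set passed in limma when no block was used (adjusted p = 0.272 and 0.368 in the same order). Blocking by experiment record instead gave adjusted p = 0.0108 and 0.0576, so only rc_AI169756_s_at passed there.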

How the results depend on the processing

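Of the 33 member values against control, 32 kept their sign under every alternative that tested them, the exception being Dusp5 at 4 h. This includes all 12 called values. Between exposure times 20 of the 33 values did. The filter, the variance trend, the replicate block and the fit of 2 groups alone leave an estimate unchanged. Leaving out 1 array cannot reverse a sign where the 2 groups do not overlap. A kept sign was therefore largely fixed in advance and says little about the calls. With the replicate block, which follows the pairing of array numbers, the member probe sets called became 7 from 3 at 1 h, 9 from 4 at 2 h and 2 from 0 between 4 h and 1 h, where the recorded experiment as a block gave 1. At 4 h the 5 calls became 3 with an offset at the 40th percentile, 2 with no trend of variance and 3 with the 2 groups fitted alone; the cause was not tested. Leaving out 1 array, whose lone partner is then assumed to vary like the other groups, gave 0 to 3 calls at 1 h, 0 to 4 at 2 h and 0 to 5 at 4 h. The filter on the mean log2 value left out Errfi1 M23572_at and Dusp6 X94185cds_s_at, which held the only Dusp6 call of the first fit. Over all probe sets the calls ranged from 5 to 79 at 1 h (31), 19 to 186 at 2 h (57) and 32 to 466 at 4 h (90), the highest in each being those with the block.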
